A study of Mus musculus with 36 samples.

Results

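The 10 genes described here are members of the interleukin-1 (IL-1) family and the inflammasome: Il1a, Il1b, Il18, Il1rn, Il1r2, Il1rap, Nlrp3, Pycard, Casp1 and Gsdmd. They were chosen by name from the count table, which lists 24781 genes, and all 10 are in it. The choice used no measured value, but it was made with earlier results of these data known.

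IL-1 alpha and IL-1 beta are inflammatory cytokines that signal through the same receptor, which needs the accessory subunit encoded by Il1rap, while IL-18 is a related cytokine with a receptor of its own. The product of Il1rn blocks the IL-1 receptor without activating it, and the product of Il1r2 is a decoy receptor that binds IL-1 without signalling. An inflammasome forms when a sensor such as NLRP3 recruits the adaptor ASC (gene Pycard) and caspase-1, which cleaves pro-IL-1 beta and pro-IL-18 into their mature forms and gasdermin D into a pore-forming fragment, so mRNA levels do not show how much active cytokine is made.

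The study took tumours of MC38, a mouse colon adenocarcinoma line, at day 7 after injection and sorted 100 cells per library. Macrophages were sorted as CD45+CD11b+F4/80high cells and are called TAM (tumour-associated macrophages), and T cells as CD45+TCRbeta+CD8+ cells, called CD8. The hosts were wild-type mice (WT), muMt-/- mice, in which no mature B cells form, and the same mutants implanted with a pellet of the neurotransmitter GABA (muMt+GABA), so that the comparisons ask what changes without B cells and with GABA added back. Each cell type has 6 libraries per group, 36 in all. The labels give the treatment of the WT and muMt groups as none, whereas the study's methods describe a placebo. The labels give neither sex nor age, and the study states both sexes and young adult age for its mice in general. It gives C57BL/6J or C57BL/6N for its WT mice and C57BL/6J for muMt-/- mice. The substrain of the WT mice in these libraries is not stated, so WT may differ from the mutants in substrain as well. Because the muMt allele removes B cells throughout development, every difference from WT is that of a mouse raised without them. Any part of substrain in these differences was not tested.

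Values are counts of distinct molecules. In this text, normalized molecules are counts divided by the size factor of the library, estimated within a cell type, and a call is an adjusted p under 0.05 in a fit of all genes with edgeR. TAM libraries held from 206394 to 304100 molecules in WT (median 242756), from 100254 to 253608 in muMt (median 149960) and from 151856 to 262606 in muMt+GABA (median 192775). CD8 libraries held from 22896 to 76898 in WT (median 42066), from 51064 to 77839 in muMt (median 67122) and from 65356 to 98015 in muMt+GABA (median 80283). Depth therefore moved with the groups. In TAM the mean of muMt was 0.673 times that of WT (exact permutation test over 6 against 6 libraries, 2-sided, p = 0.0260, adjusted over 3 comparisons 0.0779). In CD8 the mean of muMt was 1.54 times that of WT (exact p = 0.0411, adjusted 0.0617) and that of muMt+GABA 1.86 times (exact p = 0.00866, adjusted 0.0260). The part of depth in the results below was not tested beyond a fit with it as a covariate.

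In WT the sort labels held against the markers: all 18 macrophage markers were called higher in TAM and all 12 T cell markers higher in CD8. The summed macrophage markers ran from 2140.0 to 4133 normalized molecules in TAM, with Ctss the most abundant (mean 704). The CD8 libraries also held molecules of all 18 macrophage markers, most of all Ctss (mean 34.6). Their sum was 10.3, 23.5 and 121 (lowest, median, highest) in CD8 WT, 54.2, 87.4 and 449 in CD8 muMt, and 18, 127 and 232 in CD8 muMt+GABA. The highest values came from WT replicate 5 and muMt replicate 1. In CD8 muMt replicate 1 the macrophage sum exceeded the summed T cell markers (449 beside 125). It also did so in CD8 muMt+GABA replicate 1 (232 beside 149) and replicate 3 (218 beside 191). The mean sum was 4.04 times as high in muMt as in WT (exact p = 0.0411, adjusted 0.0649) and 3.38 times in muMt+GABA (exact p = 0.0433, adjusted 0.0649). Without WT replicate 5 the ratios were 7.40 and 6.20 (exact adjusted p = 0.0390 for both), and without muMt replicate 1 the first was 2.42 (exact adjusted p = 0.114); with any 1 library left out the adjusted p ran from 0.0390 to 0.166. In CD8 WT 3 of the 18 macrophage markers, Adgre1, Mrc1 and Mertk, were at 0 in all 6 libraries.

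In TAM, muMt against WT, edgeR called 0 of the 10 members, beside 194 of 9469 genes tested (2.05%). At an unadjusted p under 0.05 it gave 5 members, Il1a, Il1b, Il1rn and Il1r2 higher and Casp1 lower, beside 1408 genes (14.9%). DESeq2 called 1 member, Il1b, of the 9 with an adjusted p, beside 253 of 5245 genes (4.82%), and at an unadjusted p 5 members beside 1111 of 9458 (11.7%). The median log2 fold change of the members was 0.41, beside -0.05 over all genes tested. All 10 members were detected in all 18 TAM libraries and passed the filter on low values.

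Il1b, the gene of IL-1 beta, had 121, 159.9 and 250.5 normalized molecules (lowest, median, highest) in TAM WT, 173, 290.4 and 334 in muMt and 101, 177 and 232 in muMt+GABA. In words, 4 of 6 muMt libraries lay above every WT library, muMt replicates 4 and 5 lay inside the WT range, and no muMt+GABA library lay above the WT range. The means were 172 ± 47.6 (SD, n = 6), 271 ± 63.8 and 171 ± 52.7. The log2 fold change of muMt against WT was 0.62 (SE 0.19, adjusted p = 0.0797). It passed in edgeR without TAM WT replicate 5 (0.77, adjusted p = 0.0294), without TAM muMt replicate 5 (0.72, adjusted p = 0.0335), with the 12 libraries compared alone (adjusted p = 0.0249), with filterByExpr (0.0395) and with no filter (0.0176), and it passed in DESeq2 (0.65, adjusted p = 0.0458). Over all alternatives the adjusted p ran from 0.0176 to 0.367, the latter with depth as a covariate. The study used Il1b as a representative gene and put Il1a, Il1b and Il1rn on a list of TNF targets for TAM chosen on these libraries, so their direction here is not independent evidence.

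Il1a, the gene of IL-1 alpha, had 2.77, 7.32 and 11.6 normalized molecules in TAM WT, 10.1, 12.5 and 20.7 in muMt and 7.11, 12.2 and 15.9 in muMt+GABA. All 6 muMt libraries lay above the WT median and 4 above every WT library, while the ranges overlapped. Between muMt and WT its log2 fold change was 0.86 (SE 0.28, adjusted p = 0.0964). Il18 had a median of 4.15 in WT, 4.22 in muMt and 4.68 in muMt+GABA, from 35, 21 and 30 molecules per group. Its log2 fold change was -0.09 (SE 0.41, adjusted p = 0.957), with wide overlap, and the interval of -0.89 to 0.72 leaves room for a sizeable difference in either direction.

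Of the genes that restrain IL-1, Il1rn had 41.8, 54.8 and 70.5 normalized molecules in TAM WT, 49.3, 83.9 and 94.8 in muMt and 39.6, 67.3 and 91.4 in muMt+GABA. Again 4 of 6 muMt libraries exceeded every WT library, and the other 2, replicates 4 and 5, were the same libraries that were lowest for Il1b in muMt. Its value in log2 fold change was 0.40 (SE 0.20, adjusted p = 0.334). Il1r2, the decoy receptor, had medians of 3.20 in WT, 5.16 in muMt and 6.08 in muMt+GABA, from 27, 34 and 40 molecules. Its log2 fold change for muMt against WT was 0.92 (SE 0.38, adjusted p = 0.234). Il1rap, the receptor subunit, had a median of 5.07 in WT, 6.50 in muMt and 7.77 in muMt+GABA, with a log2 fold change of 0.46 for muMt against WT (SE 0.38, adjusted p = 0.634).

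Among the inflammasome genes, Nlrp3, the sensor, had 7.67, 14.8 and 26.4 normalized molecules in TAM WT, 13.7, 25.4 and 27.9 in muMt and 11.2, 18.4 and 21.1 in muMt+GABA. The WT libraries spanned nearly the whole muMt range. Its log2 fold change was 0.41 (SE 0.24, adjusted p = 0.432). Casp1, the caspase, lay on the other side: 13.8, 22.5 and 29.8 in WT, 4.18, 13.6 and 22.1 in muMt and 7.97, 14.9 and 21.6 in muMt+GABA. Here 3 of 6 muMt libraries lay below every WT library and the ranges overlapped. The log2 fold change of muMt against WT was -0.77 (SE 0.27, adjusted p = 0.138). It passed without TAM muMt replicate 3 (-1.05, adjusted p = 0.0496) and with no filter (-0.80, adjusted p = 0.0417), and over all alternatives the adjusted p ran from 0.0417 to 0.823. Pycard, the adaptor, had medians of 45.5, 39.0 and 44.1 with a log2 fold change of -0.17 (SE 0.19, adjusted p = 0.734). Gsdmd, the pore-forming substrate, had medians of 16.0, 14.1 and 10.2 with a log2 fold change of -0.30 (SE 0.28, adjusted p = 0.69).

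**Figure D1:**
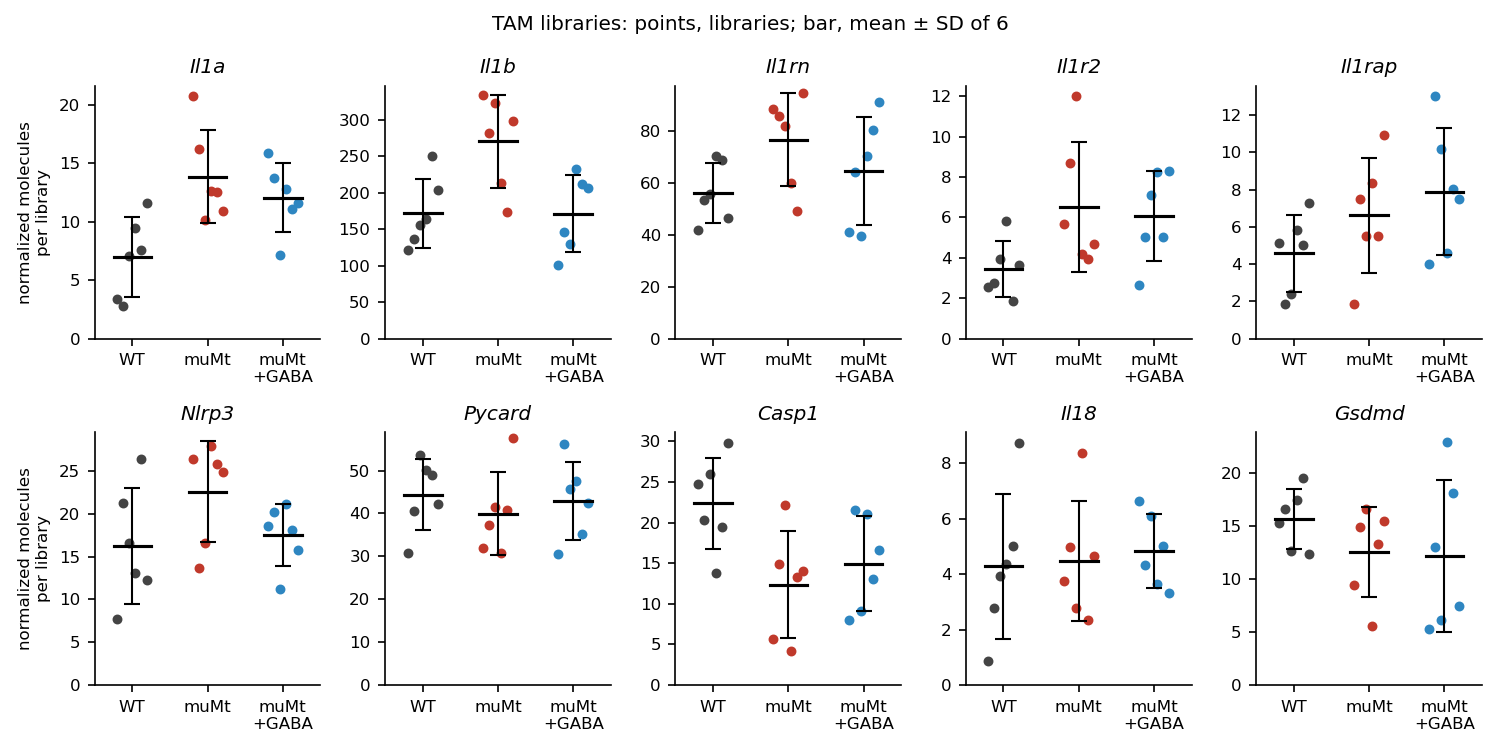
Normalized molecules of the 10 members in TAM (y axis, molecules per library divided by the size factor) for WT, muMt and muMt+GABA (x axis). Each point is a library (6 per group) and bars are the mean and SD. Il1b runs from 121 to 250.5 in WT and from 173 to 334 in muMt, and Casp1 from 13.8 to 29.8 and from 4.18 to 22.1.

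Other measures moved with the same groups in TAM, and their part in the results was not tested. The summed nuclear RNAs Malat1 and Neat1, a sign of RNA quality, were 1.83 times as high in muMt as in WT (exact p = 0.00216, the smallest value 6 against 6 libraries can give, adjusted 0.00649) and 0.622 times as high in muMt+GABA as in muMt (exact p = 0.00866, adjusted 0.0130). The summed monocyte markers, most abundant Ccr2, were 1.74 times as high in muMt as in WT (exact p = 0.0108, adjusted 0.0162) and 1.35 times in muMt+GABA as in WT (exact p = 0.00433, adjusted 0.0130), and 0.776 times in muMt+GABA as in muMt (exact p = 0.0758, adjusted 0.0758). The summed neutrophil markers, most abundant Csf3r, with Retnlg, Camp and Ngp at 0, gave 1.59 times for muMt against WT (exact p = 0.147, adjusted 0.221) and 0.717 times for muMt+GABA against muMt (exact p = 0.0693, adjusted 0.208). The summed macrophage markers were 0.886 times as high in muMt as in WT (exact p = 0.0563, adjusted 0.127), and of the 18 markers edgeR called 1 higher and 4 lower. The T cell, dendritic cell, B cell, mast cell and basophil, and tumour and stroma lists gave adjusted p of 0.484, 0.948, 0.827, 0.273 and 0.985 for muMt against WT in exact tests. Fewer cells of a type and less RNA per cell cannot be told apart in bulk libraries of this kind.

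For TAM, muMt+GABA against muMt, edgeR called 0 of the 10 members, beside 2 of 9469 genes (0.0211%), and at an unadjusted p under 0.05 gave 1 member, Il1b, beside 801 genes (8.46%). DESeq2 called 1 of the 3 members with an adjusted p, Il1b, beside 60 of 840 genes (7.14%), and at an unadjusted p 1 member beside 580 of 9458 (6.13%). Il1b gave a log2 fold change of -0.62 (SE 0.19, adjusted p = 0.278), with 3 of 6 muMt+GABA libraries below every muMt library. It passed in DESeq2 (-0.65, adjusted p = 0.0367) and with no filter (-0.61, adjusted p = 0.0493), and over all alternatives the adjusted p ran from 0.0367 to 0.439. Il1a gave -0.13 (SE 0.27), Il1rn -0.19 (SE 0.20), Nlrp3 -0.31 (SE 0.25) and Casp1 0.25 (SE 0.30), all with adjusted p of at least 0.772. For muMt+GABA against WT, edgeR called 0 members beside 7 genes (0.0739%) and gave 4 at an unadjusted p, Il1a, Il1r2 and Il1rap higher and Casp1 lower, beside 665 genes (7.02%). DESeq2 called 0 of 3 members beside 14 of 1391 genes (1.01%) and gave 2 at an unadjusted p, Il1a and Il1rap, beside 440 of 9458 (4.65%). In that comparison Il1a gave a log2 fold change of 0.73 (SE 0.27), Il1r2 0.84 (SE 0.37), Il1rap 0.79 (SE 0.34) and Casp1 -0.52 (SE 0.25). Their adjusted p were 0.54, 0.658, 0.639 and 0.711, and Il1b gave 0.00 (SE 0.19). These comparisons share libraries: the muMt libraries serve the first and muMt against WT, and the WT libraries the second and muMt against WT.

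**Figure D2:**
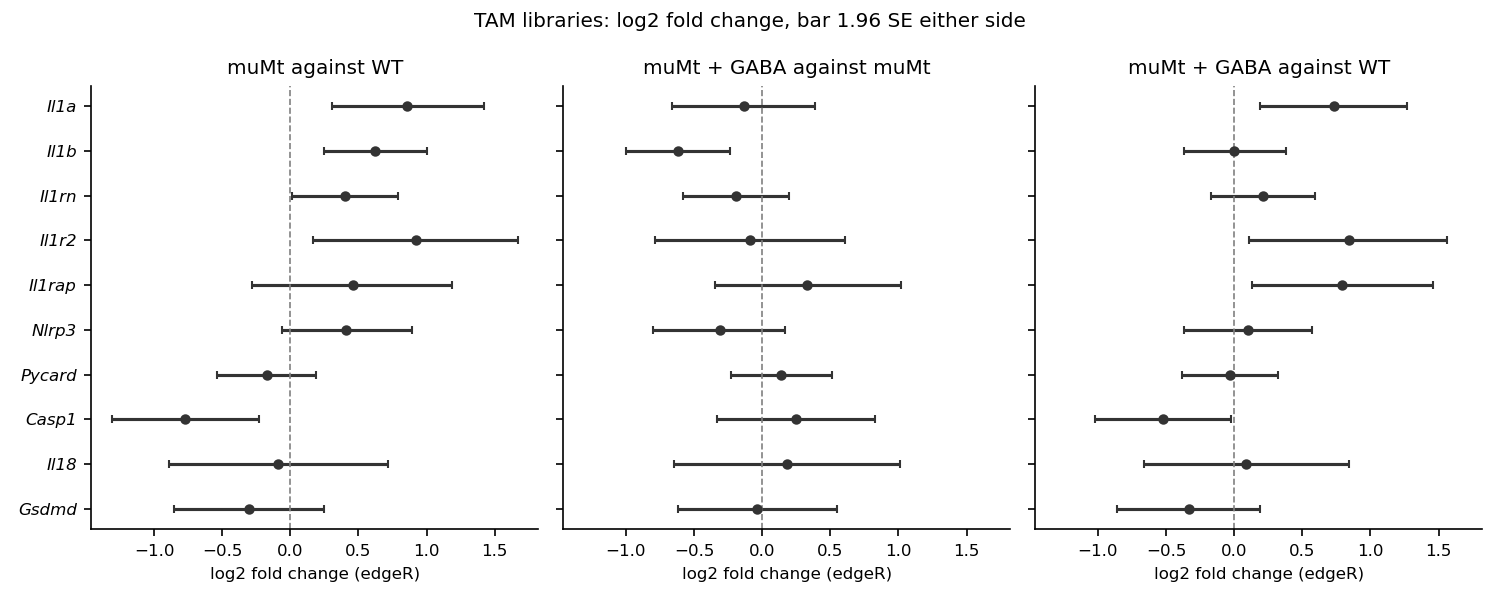
Log2 fold change (x axis) of each member (y axis) in the 3 TAM comparisons, with bars for the 95% interval from the SE. Il1b lies at 0.62, -0.62 and 0.00, and Casp1 at -0.77, 0.25 and -0.52. No member passed an adjusted p of 0.05 in the edgeR fit in any of the 3.

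The members of TAM were also compared within each library. The ratio of Il1rn to Il1b molecules (0.5 added to each) was 0.231, 0.355 and 0.430 in WT, 0.255, 0.285 and 0.319 in muMt and 0.306, 0.396 and 0.443 in muMt+GABA. In muMt+GABA 4 of 6 libraries lay above every muMt library, and the groups overlapped. The mean log2 ratio of muMt+GABA was 0.40 above that of muMt (1.32-fold, exact p = 0.00866 over 924 arrangements, adjusted over 6 tests 0.0519). It passed without muMt+GABA replicate 3 or replicate 4 (0.46, exact adjusted p = 0.0260), and over all alternatives the adjusted p ran from 0.0260 to 0.188. The ratio of Il1a to Il1b had medians of 0.0398, 0.0606 and 0.0582, and the mean log2 ratio of muMt+GABA was 0.90 above that of WT (exact p = 0.0325, adjusted 0.0974). The highest ratio of Il1a to Il1b in muMt+GABA is that of replicate 1, at 0.163, and the groups overlapped.

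Across the 18 TAM libraries, Il1b and Il1rn varied together: Pearson r was 0.82 (permutation p = 1.00e-04, adjusted over 9 relations 9.00e-04) and Spearman rho 0.80 (permutation p = 1.00e-04, adjusted 9.00e-04). Within groups r was 0.81 (permutation p = 3.90e-04, adjusted 0.00351) and rho 0.79 (permutation p = 8.40e-04, adjusted 0.00756), and without the 2 libraries farthest from the median of Il1b, WT replicate 1 and muMt+GABA replicate 1, r was 0.75 (adjusted permutation p = 0.00873). The other 8 relations with Il1b did not pass, with r from -0.08 (Casp1) to 0.48 (Il1r2), Il1a at 0.46 and Nlrp3 at 0.41. The 5 genes most like each of the pair were named, over 5309 other genes with a mean of at least 5. For Il1b these were Cd74 (r = 0.87), Clec4d (0.84), Plekho2 (0.84), H2-Eb1 (0.83) and Tgm2 (0.83), and Il1rn ranked 7. For Il1rn they were Tgm2 (0.85), Il1b (0.82), Cd74 (0.81), Lilr4b (0.80) and Ninj1 (0.79). Likeness in level says nothing of shared function or control.

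**Figure D3:**
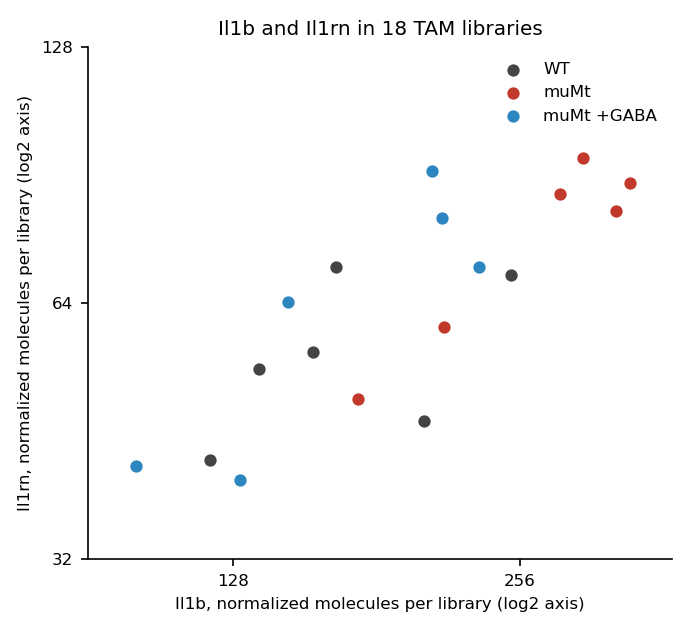
Normalized molecules of Il1rn (y axis) against Il1b (x axis), both on log2 axes, in the 18 TAM libraries; colours mark WT, muMt and muMt+GABA. The libraries lie along a rising band (r = 0.82), with muMt+GABA replicate 1 at 101 and 41.2 at the lower end and muMt replicate 1 at 334 and 88.6 at the upper end.

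In CD8 the same genes were sparse. The filter passed 9 of the 10 members, and Il18 failed it, with 0 molecules in all 6 WT libraries, 2 in muMt and 1 in muMt+GABA. Il1b had 0, 1.11 and 37.7 normalized molecules in CD8 WT, 3.36, 15.0 and 143 in muMt and 0, 14.6 and 36.9 in muMt+GABA. One library, muMt replicate 1, held 141 of the 228 Il1b molecules of its group, and WT replicate 5 held 33 of the 48 of its own. Il1rn was at 0 in 5 of 6 WT libraries (5 molecules, all in replicate 5), whereas all 6 muMt libraries held 3 to 13 molecules and 5 of 6 muMt+GABA libraries 3 to 17. Nlrp3 had 2 molecules in WT, 20 in muMt (13 of them in replicate 1) and 3 in muMt+GABA. Its mean of 1.25 over the 18 libraries passed the filter of 1 only through muMt (3.12, beside 0.316 in WT and 0.315 in muMt+GABA), so its place among the genes tested rests on the group that is then compared. Casp1 had 5, 16 and 28 molecules in the 3 groups.

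In CD8, muMt against WT, edgeR called 0 of the 9 members tested, beside 0 of 6663 genes (0%), and at an unadjusted p under 0.05 gave 3, Il1b, Il1rn and Nlrp3, beside 411 genes (6.17%). DESeq2 called 0 members beside 0 of 6662 genes (0%), and at an unadjusted p 2, Il1rn and Nlrp3, beside 222 genes (3.33%). The log2 fold change of Il1rn was 2.53 (SE 0.77, adjusted p = 0.36), of Nlrp3 2.54 (SE 0.99, adjusted p = 0.643) and of Il1b 1.84 (SE 0.75, adjusted p = 0.686). Il1rn passed without CD8 WT replicate 5 (5.87, adjusted p = 0.0304), where its WT level is 0 and the fitted value is no bound. By a floor of 3 counts it was at least 7.84-fold higher in muMt than in the other 5 WT libraries. With replicate 5 kept, Il1rn was 5.78-fold higher (log2 interval 1.02 to 4.04), so 7.84 is no minimum for the whole WT group. Over all alternatives its adjusted p ran from 0.00458, with no filter, to 1. Il1b passed with no filter (1.87, adjusted p = 6.42e-07), and over all alternatives its adjusted p ran up to 1. Without CD8 muMt replicate 1, Il1b gave 0.65 and Nlrp3 1.33, and without CD8 WT replicate 5 Il1b gave 3.20. With the summed macrophage markers as a covariate, Il1b gave -0.84, Il1a -0.52 and Nlrp3 -0.27, each the reverse of its value without, and Il1rn 0.98. For muMt+GABA against muMt edgeR called 0 members beside 0 genes (0%) and gave 1 at an unadjusted p, Nlrp3 lower, beside 247 (3.71%), and DESeq2 0 members beside 0 genes (0%) and 1 at an unadjusted p, Nlrp3, beside 133 (2.0%). Nlrp3 gave a log2 fold change of -2.66 (SE 0.87, adjusted p = 0.999), and -1.45 without CD8 muMt replicate 1 or -3.52 without CD8 muMt+GABA replicate 1.

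In CD8, muMt+GABA against WT, edgeR called 0 members beside 0 genes (0%) and gave 2 at an unadjusted p, Casp1 and Il1rn, beside 459 (6.89%), and DESeq2 called 0 members beside 1 gene (0.0150%) and gave 1 at an unadjusted p, Il1rn, beside 222 (3.33%). There Il1rn gave 2.23 (SE 0.78, adjusted p = 0.474) and Casp1 1.66 (SE 0.65, adjusted p = 0.585). With CD8 WT replicate 5 alone left out, 0 members were called. With CD8 WT replicate 5 and CD8 muMt replicate 1 left out together, an alternative chosen after seeing the data, Il1rn passed (5.58, adjusted p = 0.0348). The 5 WT libraries left hold none of its molecules, so that 5.58 is no bound either, and by the same floor it was at least 6.20-fold higher than in those 5. With all libraries kept, Il1rn was 4.7-fold higher (log2 interval 0.70 to 3.77), so 6.20 is no minimum for the whole WT group. Over all alternatives its adjusted p ran from 0.0324 to 0.999. With the macrophage markers as a covariate it gave 0.71 there, and Il1b -1.40.

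**Figure D4:**
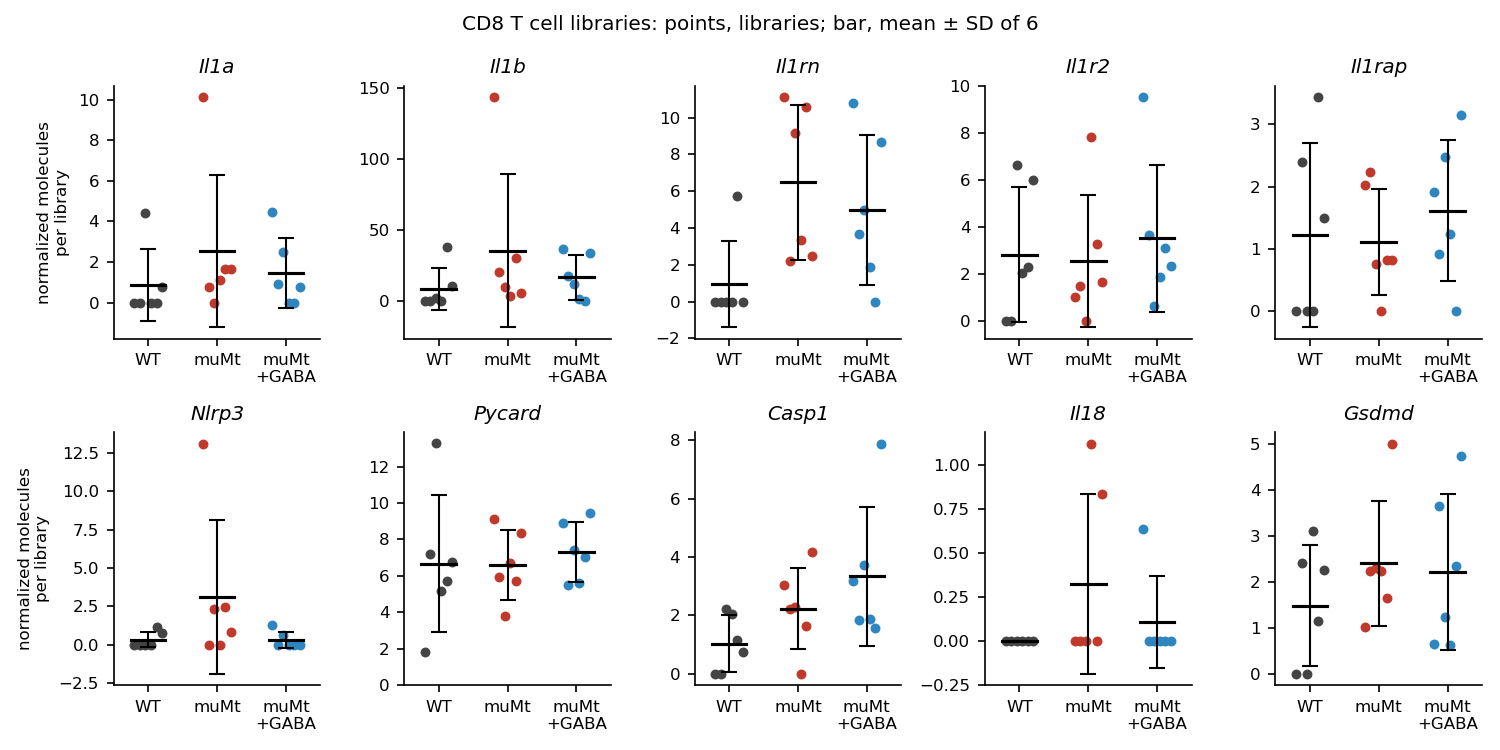
Normalized molecules of the 10 members in CD8 (y axis, molecules per library divided by the size factor) for WT, muMt and muMt+GABA (x axis). Each point is a library (6 per group) and bars are the mean and SD. The single high Il1b value in muMt is replicate 1 (143), and 5 of 6 WT libraries hold no Il1rn.

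The CD8 levels were also set beside those of TAM. In CPM (counts scaled to the same library total), the mean macrophage marker sum of CD8 was 3.28% of that of TAM in WT, 15.0% in muMt and 12.9% in muMt+GABA. Single markers spread widely, up to 8.89% in WT (Cd14), from 5.08% (Adgre1) to 34.2% (Cd14) in muMt and from 4.15% (C1qc) to 27.9% (Itgam) in muMt+GABA. The CD8 level of Il1b was 15.6%, 41.1% and 31.2% of that of TAM in the 3 groups, and that of Il1rn 5.34%, 27.7% and 24.6%. Single libraries carry some of these shares. Without CD8 WT replicate 5 the WT share fell to 4.82% for Il1b, to 0% for Il1rn and to 1.83% for the macrophage markers, and without CD8 muMt replicate 1 the muMt share fell to 17.5% for Il1b and to 9.51% for the markers. For Pycard the shares were 49.4%, 55.4% and 55.6%, and for Il1r2 269%, 132% and 185%. Without CD8 muMt replicate 4 the muMt share of Il1r2 was 77.4%, which turns the direction. The part of macrophage RNA in the CD8 values was not tested beyond the covariate fit.

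Between the cell types in WT, edgeR called 7 of the 10 members, beside 1928 of 8477 genes (22.7%), and all 7 were higher in TAM, beside 1420 genes higher in TAM (16.8%) and 508 lower. DESeq2 called 1666 of 8473 genes (19.7%) and 7 members, which were Il1b, Il1rn, Nlrp3, Pycard, Casp1, Il18 and Gsdmd in both tools. Of these, Il18 lay under the filter of 1 in CD8 (mean 0.144) and above it in TAM (4.54). Its place among the genes tested thus rests on the cell type in which it is then called higher. With DESeq2 size factors in edgeR the split of calls was 1176 higher and 632 lower, and the median log2 fold change of all genes moved from 0.359 to 0.199. The same change of size factors moved that median in CD8 from 0.155 to 0.0595 for muMt against WT and from 0.208 to 0.0595 for muMt+GABA against WT, and in the interaction for muMt from -0.297 to -0.107. The log2 fold change of Il1rn was 4.24 (SE 0.58, adjusted p = 4.01e-08), of Nlrp3 3.67 (SE 0.77, adjusted p = 0.00018), of Casp1 2.90 (SE 0.55, adjusted p = 3.07e-05) and of Il1b 2.72 (SE 0.61, adjusted p = 0.000402). Gsdmd gave 1.77 (SE 0.51, adjusted p = 0.00648) and Pycard 1.43 (SE 0.28, adjusted p = 5e-05). In CPM the 2 cell types did not overlap for Il1b, Il1rn, Nlrp3, Casp1, Il18 and Gsdmd, and overlapped for Pycard, with 3 of 6 TAM libraries above every CD8 library. The share of all genes without overlap was not counted, so whether this separation is unusual for the members cannot be read. For Il18 the separation cannot be read, since 3 counts over the CD8 WT group (11.4 CPM) exceed the lowest TAM WT library (4.56 CPM).

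Il18, absent from all 6 CD8 WT libraries, was at least 2.09-fold higher in TAM WT, with a floor of 3 counts over the CD8 WT group (11.4 CPM) against 35 molecules in TAM (23.8 CPM). Il1a was not called (1.97, SE 0.82, adjusted p = 0.0773), and was called without CD8 WT replicate 3 (3.20), with no filter (2.07) and with the 12 libraries compared alone (1.95); over all alternatives its adjusted p ran from 0.0219 to 0.475. Il1r2 gave -1.24 (SE 0.60, adjusted p = 0.134) and Il1rap 0.45 (SE 0.64, adjusted p = 0.685). With 1 library left out Il1r2 ran from -1.48 to -0.63 and Il1rap from 0.07 to 1.11. Without CD8 WT replicate 5, Il1b gave 4.10 and Nlrp3 4.26. The fitted 8.41 of Il1rn without that library is no bound, since the other 5 CD8 WT libraries hold none of its molecules. By the floor of 3 counts it was at least 21.5-fold higher in TAM than in those 5. With that library kept, Il1rn was 18.9-fold higher (log2 interval 3.11 to 5.37), so 21.5 is no minimum for the whole CD8 WT group. Depth and cell type cannot be told apart here, since every TAM library was deeper than every CD8 library: with depth as a covariate only Il1rn passed, at 3.84. Under that covariate Nlrp3 gave 3.13, Il1b 1.73, Casp1 1.16, Gsdmd 1.02 and Pycard 0.93, and no fold is given for Il18, whose CD8 WT libraries hold 0 molecules.

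Whether the muMt effect differs between the cell types was tested as an interaction. For muMt, edgeR called 0 of 10 members beside 1 of 8477 genes (0.0118%), and gave 3 at an unadjusted p, Il1rn, Nlrp3 and Casp1, beside 853 (10.1%). All 3 were negative, as were 705 of those 853 genes, beside 148 positive. The median over all genes tested was -0.297. All 18 macrophage markers were negative too, 14 of them at an unadjusted p (median -2.59). DESeq2 called 0 of 3 members beside 9 of 2395 genes (0.376%), and gave 3 at an unadjusted p beside 600 of 8473 (7.08%). For GABA, edgeR called 0 members beside 0 genes (0%) and gave 1 at an unadjusted p, Nlrp3, beside 384 (4.53%), and DESeq2 called 0 beside 0 of 8473 (0%) and gave 1 at an unadjusted p beside 361 (4.26%). The difference in the muMt effect was -2.21 (SE 0.81, adjusted p = 0.337) for Il1rn and -1.25 (SE 0.79, adjusted p = 0.603) for Il1b. Without CD8 muMt replicate 1 the value for Il1b was -0.02, and without CD8 WT replicate 5 it was -2.63, while the fitted -6.38 of Il1rn without that library rests on a group at 0. With no filter both passed (adjusted p = 0.0473 for Il1rn and 0.0391 for Il1b), and over all alternatives the adjusted p ran from 0.0473 to 0.842 for Il1rn and from 0.0391 to 1 for Il1b. A difference between the cell types was thus not shown for any member in the edgeR fit, and its absence was not shown either.

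Other genes of the pathway came from named lists. In TAM, muMt against WT, 0 of the 4 tested genes of the other IL-1 family list were called, 0 of 16 signalling genes, 1 of 15 other inflammasome genes and 3 of 14 genes that IL-1 and NF-kappaB induce, all 4 of them higher in muMt, beside 2.05% of all genes. Ninj1, which drives membrane rupture in dying cells, rose by a log2 fold change of 1.06 (SE 0.22, adjusted p = 0.00596). Cxcl2, a neutrophil-attracting chemokine, rose by 0.87 (SE 0.20, adjusted p = 0.0123), Ptgs2, the gene of cyclooxygenase-2, by 0.90 (SE 0.22, adjusted p = 0.0218) and Cxcl3 by 2.05 (SE 0.57, adjusted p = 0.0454). The call for Cxcl2 was lost without TAM WT replicate 1 (0.76, adjusted p = 0.0531), and that for Ptgs2 without TAM WT replicate 1 (0.77, adjusted p = 0.0716), TAM WT replicate 3 (0.82, 0.0592) or TAM muMt replicate 4 (0.76, 0.0906). Cxcl3, with 0 to 5.81 normalized molecules in WT, lost it without any of 9 libraries (1.81 to 2.20) and gave 2.91 without TAM WT replicate 6. The robust fit also lost Ptgs2 (adjusted p = 0.0648) and Cxcl3 (adjusted p = 0.0786). With depth as a covariate none of these 4 passed, at 1.09 for Ninj1, 0.64 for Cxcl2, 0.78 for Ptgs2 and 1.91 for Cxcl3, and over all alternatives the adjusted p ran from 0.000919 to 0.116 for Ninj1, from 0.000142 to 0.394 for Cxcl2, from 0.000184 to 0.327 for Ptgs2 and from 0.00209 to 0.371 for Cxcl3. In the other within-cell-type comparisons none of these lists had a call in edgeR, and at an unadjusted p the induced genes gave 5 of 14 lower in TAM muMt+GABA against muMt, beside 8.46% of all genes in either direction. In CD8 they gave 6 of 13 higher in muMt against WT, beside 6.17% of all genes, and 4 higher and 1 lower in muMt+GABA against WT, beside 6.89%. In each of these 2 CD8 comparisons 12 of the 15 macrophage markers tested were higher at an unadjusted p as well.

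As examples of level, Il18bp, the gene of the IL-18 binding protein, had a mean of 23.7 normalized molecules over the 18 TAM libraries, and Il18rap and Il18r1, the IL-18 receptor subunits, 9.59 and 8.98 in CD8. Il33 held no molecule in any CD8 library, and Il1r1, the signalling receptor for IL-1, averaged 0.741 in TAM and 0.0562 in CD8. Of the signalling genes, Tab2 averaged 42.5 and Irak1 29.1 in TAM and Nfkb1 11.6 in CD8. Txnip averaged 24 in TAM and 7.46 in CD8, and of the induced genes Ccl2 averaged 134 in TAM and Ccl4 199.7 in CD8, all with the 3 groups pooled. Between the cell types in WT the calls were 4 of 5 tested genes of the other family list, 4 of 16 signalling genes, 5 of 13 inflammasome genes and 11 of 15 induced genes, beside 22.7% of all genes. Among those called, Irak3, Mefv, Naip5 and P2rx7 lay under the filter of 1 in CD8 (means 0.133, 0.344, 0.502 and 0.476). Il18r1, Sigirr and Csf2 lay under it in TAM (0.171, 0.168 and 0.443). Their place among the genes tested thus rests on the cell type in which they are then called higher. Higher in TAM were Il18bp (3.76), Myd88 (1.90), Tollip (2.05), Naip2 (4.07), P2rx7 (3.24), Txnip (1.11), Ptgs2 (3.03), Cxcl2 (3.16), Ccl2 (2.57), Tnf (2.5), Icam1 (1.53) and Sod2 (1.69), in log2 fold change. Naip5, Mefv and Irak3 were at 0 in all 6 CD8 WT libraries and were at least 2.45-fold, 1.97-fold and 1.31-fold higher in TAM by the same floor of 3 counts. Higher in CD8 were Il18rap (-4.20), Sigirr (-3.60), Nfkb1 (-0.83), Nfkbia (-0.82), Tnfaip3 (-2.44), Ccl3 (-3.63) and Ccl4 (-3.46), as TAM over CD8. Il18r1 and Csf2 were at 0 in all 6 TAM WT libraries and were at least 67.0-fold and 39.1-fold higher in CD8 by that floor over the TAM WT group (2.04 CPM).

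Many of these calls depend on a setting. With depth as a covariate 17 of the 24 were lost. Of these, 3 have a group at 0, and of the other 14 the fold lay nearer to 0 than without the covariate for 9 and farther from 0 for 5. DESeq2 did not call Irak3, Tollip, Txnip and Icam1, DESeq2 size factors lost Icam1, the robust fit Tnf, filterByExpr Txnip and no filter Nfkb1, and leaving out the 2 CD8 libraries lost Txnip, Tnf and Icam1.

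Some calls rested on single libraries. Tollip lost its call without CD8 WT replicate 4 (1.68) or 6 (1.64), Txnip without CD8 WT replicate 4 (0.85), Nfkbia without CD8 WT replicate 5 (-0.69), and Nfkb1 without CD8 WT replicate 4 or 6 or TAM WT replicate 3, 4 or 6 (-0.71 to -0.78). Tnf lost it without CD8 WT replicate 2, 3, 5 or 6 or TAM WT replicate 2 or 4 (2.09 to 2.35) and gave 3.53 without CD8 WT replicate 4, and Icam1 lost it without CD8 WT replicate 1, 2, 4 or 5 or TAM WT replicate 2 (1.29 to 1.54). Without CD8 WT replicate 5, Ccl2 gave 4.56 and Ptgs2 4.15. Without CD8 WT replicate 6, Cxcl2 gave 4.83. In 4 cases the library left out held all molecules of its group, so that the fitted values, 7.23 for Il18bp without CD8 WT replicate 6, 7.01 for Naip2 without CD8 WT replicate 4, 5.40 for P2rx7 without CD8 WT replicate 2 and -4.39 for Sigirr without TAM WT replicate 1, are no bounds. By a floor of 3 counts over the 5 libraries left, Il18bp was at least 8.53-fold, Naip2 at least 8.07-fold and P2rx7 at least 2.94-fold higher in TAM, and Sigirr at least 9.50-fold higher in CD8.

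Il1a and Il1b lie on chromosome 2 in build GRCm38.p6, both on the minus strand and 54382 bp apart, and Il1rn lies on the plus strand of the same chromosome, 104948117 bp from Il1a. Antisense genes overlap some members: Il1bos lies over Il1b, Gm14023 over Il1a, Gm16894 over Il1r2 and Gm20319 over Il1rap, and Bco2 and Tex12 lie over Il18, each on the opposite strand and each in the count table. The strand used in counting is not stated, so their share in these counts was not tested. RefSeq promoters were found for 9 of the 10 members, at 12 start sites, and none for Gsdmd.

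Because Il1b and Il1rn varied together in TAM, their promoters are printed beside that of Il1a, as the 250 bases before the start, 5′ to 3′ on the gene's own strand, in build GRCm38.p6. Capitals mark matches on either strand to TATAAA, to TGANTCA (AP-1) or to GAGGAAG (PU.1), which 12.4%, 6.75% and 10.6% of 32841 promoters hold. GGANNTTCC (kappaB, 3.59%) and TTGCNNAA (C/EBP, 9.57%) were searched as well and are in none of these windows. TATAAA was added after the sequences were seen. Il1b is chr2:129371140-129371389 on the minus strand, Il1a chr2:129309973-129310222 on the minus strand and Il1rn, at the first of its 3 starts, chr2:24336610-24336859 on the plus strand.
Il1b: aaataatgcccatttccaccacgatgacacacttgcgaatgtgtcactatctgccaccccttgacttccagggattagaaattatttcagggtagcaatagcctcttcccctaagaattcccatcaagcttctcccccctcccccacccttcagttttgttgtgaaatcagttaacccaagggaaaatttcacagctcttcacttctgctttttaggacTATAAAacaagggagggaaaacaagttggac
Il1a: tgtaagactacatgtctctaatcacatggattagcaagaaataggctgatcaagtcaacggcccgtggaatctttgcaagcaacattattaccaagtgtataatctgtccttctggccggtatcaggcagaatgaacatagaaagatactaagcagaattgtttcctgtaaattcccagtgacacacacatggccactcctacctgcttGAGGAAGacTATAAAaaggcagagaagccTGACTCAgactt
Il1rn: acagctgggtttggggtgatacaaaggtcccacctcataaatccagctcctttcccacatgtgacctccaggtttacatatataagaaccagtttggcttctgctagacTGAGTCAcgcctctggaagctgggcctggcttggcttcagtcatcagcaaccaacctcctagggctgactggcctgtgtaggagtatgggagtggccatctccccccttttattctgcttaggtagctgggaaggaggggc
Il1b and Il1a both hold TATAAA near the start, at 31 to 26 and at 32 to 27 bases before it. Il1a also holds GAGGAAG and TGACTCA, and Il1rn holds TGAGTCA at 141 to 135 bases before its first start. The windows before the other starts of Il1rn hold no match to any of the letters searched. A match describes letters in the window, and a missing one says only that these letters are not in it. Of the other members, Il1r2 and Nlrp3 hold a match to GGANNTTCC, Pycard one to TTGCNNAA, Nlrp3 and Pycard also matches to GAGGAAG (2 and 1), and Il18 one to TATAAA.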

How the data were processed

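The deposited table holds one count per gene and library: the authors aligned reads with STAR to mm10 and counted distinct molecules by their barcodes, as a count of molecules per gene. All 36 libraries and 24781 genes were read, and 0 columns were left unused. Groups came from the titles, with 6 libraries each. Genes with a mean normalized number above 1 (DESeq2 size factors) within a cell type were tested: 9469 in TAM, 6663 in CD8 and 8477 with both. The fit was an edgeR 4.0.16 quasi-likelihood model with TMM factors and library totals over the tested genes, in R 4.3.3; library totals over all genes were used in a first run, and that setting is among the alternatives chosen after seeing the data. Adjusted p is Benjamini-Hochberg over all genes tested, and DESeq2 1.42.0 was the second tool. Single values were compared by exact permutation over libraries (2-sided) in Python 3.11.15 with numpy 2.4.6. Correlations used 100000 permutations.

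Alternatives were other size factors, DESeq2, other filters, the libraries compared alone, a replicate block, a robust fit, depth or macrophage markers as a covariate, and leaving out each library. Named genes are all 10 members, every gene of the 4 pathway lists with a call, up to 4 per list by level, and the 5 genes most like Il1b and Il1rn. Il33, Il1r1, single marker genes and the genes that overlap members are named outside these rules. The members and lists were chosen with earlier results of these data known. Floors use 3 counts and cover counting error only. Marker lists are macrophage, T cell, neutrophil, monocyte, dendritic cell, B cell, mast cell and basophil, and tumour and stroma. ERCC spike-in RNA is described in the labels, but no such gene is in the table.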

Additional observations from a re-analysis of the deposited data

Results flagged for a closer look

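In 13 of 77 groups of 6 libraries examined, 1 library lay far from the other 5: its gap to the nearest, as a share of the whole range of the group, passed Dixon's limit for 6 values. For normally distributed values chance flags about 1 in 20 groups. That rate does not hold for sparse counts, where a group with molecules in a single library always has a share of 1. Of the 13, 12 are in CD8, where counts are low. Values are normalized molecules.

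In CD8 WT, replicate 5 stood above the rest for Il1b (37.7, the others 0 to 10.5, share 0.721), for Il1rn (5.72, the others at 0, share 1) and for the macrophage marker sum (121, the others 10.3 to 29.3, share 0.829). Replicate 3 did so for Il1a (4.42, the others 0 to 0.751, share 0.830).

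In CD8 muMt, replicate 1 stood above the rest for Il1a (10.1, the others 0 to 1.67, share 0.835), Il1b (143, the others 3.36 to 30.3, share 0.807), Nlrp3 (13.1, the others 0 to 2.45, share 0.813) and the macrophage marker sum (449, the others 54.2 to 160.3, share 0.731). Replicate 6 did so for Gsdmd (5.0, the others 1.01 to 2.29, share 0.680).

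In CD8 muMt+GABA, replicate 1 was highest for Il1r2 (9.53, the others 0.620 to 3.66, share 0.659) and was the single library with Il18 (0.636, share 1), and replicate 6 was highest for Casp1 (7.88, the others 1.56 to 3.72, share 0.659). In TAM WT, replicate 5 was highest for the neutrophil marker sum (38.3, the others 6.82 to 17.4, share 0.663).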

How the results depend on the processing

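Of 3371 values under alternative settings for 148 results, 3121 were counted as the same, 94 as reversed, 75 as lost, 40 as gained and 41 as moved. Lost and gained mean a change of side of the threshold. For DESeq2 with unadjusted p, the threshold was put on the unadjusted p, so part of the 40 are not calls as defined above. For single genes, the same means that direction and side of the threshold held. For numbers of members called, it allows a small change, such as 8 beside 7 in TAM against CD8. The cause of the changes was not tested. CD8 libraries hold few molecules of most members, and depth differs between groups, so small differences there cannot be resolved.

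Members called numbered 1 (DESeq2, adjusted p), 5 (DESeq2, unadjusted p), 1 (filterByExpr), 2 (no filter) and 1 (only the 12 libraries compared) in TAM muMt against WT. The shares of all genes were 4.82%, 11.7%, 7.66% and 2.29% in that order, with none given for the 12 libraries. In TAM muMt+GABA against muMt the members called numbered 1, 1 and 1 (DESeq2 adjusted, unadjusted, no filter), beside 7.14%, 6.13% and 0.34% of all genes. In TAM muMt+GABA against WT they numbered 2 (DESeq2 unadjusted), beside 4.65%. In CD8 they numbered 2 (DESeq2 unadjusted) and 2 (no filter) for muMt against WT, 1 (DESeq2 unadjusted) for muMt+GABA against muMt, and 1 (DESeq2 unadjusted), 1 (no filter) and 1 (2 libraries left out) for muMt+GABA against WT. TAM against CD8 gave 1 with depth as a covariate, 5 of 5 tested (filterByExpr), 8 (no filter), 8 (only the 12 libraries compared) and 9 (DESeq2 unadjusted). The main fit gave 7 there, beside 22.7% of all genes. The muMt interaction gave 3 (DESeq2 unadjusted, beside 7.08%) and 2 (no filter), and the GABA interaction 1 (DESeq2 unadjusted, beside 4.26%). Where no share over all genes is given, the count cannot be read as a result about the members.

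With depth as a covariate, Pycard reversed to 0.05 in TAM muMt against WT and to 0.07 in TAM muMt+GABA against WT, Il18 to -0.02 there, Il1r2 and Il1rap to -0.03 and -0.22 in CD8 muMt+GABA against WT, and Il1rap to -1.08 in TAM against CD8. Il1b in TAM muMt+GABA against WT, at 0.00, changed sign at 0.00 with DESeq2 size factors, DESeq2 and library totals over all genes, and at -0.02 with no filter. With macrophage markers as a covariate in CD8, muMt against WT gave Il1a -0.52, Il1b -0.84, Nlrp3 -0.27 and Pycard -0.02, and muMt+GABA against WT gave Il1a -0.91, Il1b -1.40 and Il1rap -0.48. The difference of medians gave -0.06 for the ratio of Il1a to Il1b in muMt+GABA against muMt. Without the 2 libraries farthest from the median, correlations with Il1b were -0.04 (Il1rap), -0.30 (Pycard) and -0.01 (Il18).

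The settings with library totals over all genes (195 TAM muMt against WT calls beside 194, members called identical) and with 2 CD8 libraries left out (WT replicate 5 and muMt replicate 1) were chosen after seeing the data, as was leaving out each library for the macrophage marker sum and the CD8 share of the TAM level. Leaving out the 2 CD8 libraries reversed Il1rap to 0.38 in CD8 muMt against WT, Il1a to 0.55 and Il1b to 0.25 in muMt+GABA against muMt, Nlrp3 to 0.40 in muMt+GABA against WT, Il1a to 0.43 in the muMt interaction, and Il1a, Il1b and Il1rn to -0.77, -0.90 and -0.10 in the GABA interaction.

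Leaving out 1 library at a time, members called ran from 0 to 1 in TAM muMt against WT and CD8 muMt against WT, from 7 to 8 in TAM against CD8 and stayed at 0 elsewhere, and the log2 ratio of Il1rn to Il1b in TAM muMt+GABA against muMt ran from 0.35 to 0.46. Single members that reversed ran as follows: in TAM muMt against WT Il18 -0.34 to 0.22; in TAM muMt+GABA against muMt Il1r2 -0.25 to 0.26, Gsdmd -0.32 to 0.09; in TAM muMt+GABA against WT Il1b -0.13 to 0.15, Nlrp3 -0.06 to 0.32, Pycard -0.14 to 0.05, Il18 -0.12 to 0.39. Likewise in CD8 muMt against WT Il1r2 -0.95 to 0.25, Il1rap -0.42 to 0.54, Pycard -0.03 to 0.32; in CD8 muMt+GABA against muMt Il1a -1.30 to 0.55, Il1b -1.40 to 0.25, Il1r2 -0.04 to 1.23, Gsdmd -0.57 to 0.17; in CD8 muMt+GABA against WT Il1r2 -0.41 to 0.87, Nlrp3 -1.02 to 0.40. Also in the muMt interaction Il1a -2.20 to 0.17, Il1rap -0.14 to 0.87; in the GABA interaction Il1a -0.77 to 1.15, Il1b -0.92 to 0.73, Il1rn -0.17 to 0.49, Il1rap -0.60 to 0.02, Pycard -0.21 to 0.02, Casp1 -0.62 to 0.08, Gsdmd -0.21 to 0.55.

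With the replicate number as a block, 0 members were called except 7 in TAM against CD8, Il1b in TAM muMt against WT gave 0.68 and was not called, and the ratio of Il1rn to Il1b gave an adjusted p of 0.188 in exact sign flips. The study's methods name a single library per mouse, and whether the same number in TAM and CD8 marks the same mouse is not stated. The median correlation of libraries with the same number ran from -0.0796 to 0.133 over 9 pairs of groups, with 0 to 3 of 6 pairs over 0.1 (highest 0.45, CD8 muMt and muMt+GABA). For other numbers that median ran from -0.0502 to 0.0388. Between TAM and CD8 it was 0.0304 beside -0.0024 in WT, 0.0369 beside -0.0134 in muMt and 0.0546 beside -0.0156 in muMt+GABA. Within a cell type some same-number medians lay lower. These values do not settle pairing, and the libraries were treated as unpaired because the study's methods name no block.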
